A study of Drosophila melanogaster with 4 samples.

Results

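The translation initiation and elongation factors of Drosophila melanogaster were described here as the genes whose deposited names start with eIF or eEF, 51 of the 17518 listed genes. The rule uses gene names and no measured value, though it was set with earlier results of these data known. They cover the initiation factors eIF1 to eIF6 and the elongation factors eEF1, eEF2, eEF5 and eEFSec. RNA was sequenced from GFP-positive cells sorted from stage 11 embryos (eggs laid over 3 h and aged for 7 h at 25 C) of a wild-type line (WT) and of the salm[340] line, a mutant of the transcription factor gene spalt major. Embryos were picked by hand as homozygous, the source is given as embryonic myoblasts, and no source used here names the GFP driver. Each line had 2 polyA libraries, which the series calls technical replicates, so every n is a number of libraries and a p-value covers no more than their spread. In sorted bulk cells, fewer cells of a type and less RNA per cell cannot be told apart.

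Initiation factors place the initiator tRNA and the small ribosomal subunit on the start codon of an mRNA, and elongation factors bring aminoacyl-tRNAs to the ribosome and move it along. eIF2 carries the initiator tRNA, eIF3 is the scaffold on the small subunit, and the eIF4 group recognises and unwinds the capped end of the mRNA. Myoblasts fuse and then make large amounts of contractile protein, and the factors are used by every cell of the embryo.

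Counts in listed genes were between 20530119 and 21857295 per library in WT and between 15170218 and 15668621 in salm[340]. Genes of the mitochondrial genome took 24.8% and 29.3% of these counts in WT and 60.9% and 63.2% in salm[340]. All 10 muscle and mesoderm markers were detected in every library. Their summed level was 2713 and 2735 CPM (counts relative to the TMM-scaled library total) in WT against 3588 and 3767 CPM in salm[340]. Of the 10, 5 were called higher (50%, beside 10% of all tested genes) and none lower, with a median log2 fold change of 0.18. The rise was not shared by the whole list. Mean levels of Mhc went from 322 to 787 CPM and of Act57B from 1547 to 1862 CPM. The other way went 3 of the 10, htl, lmd and twi, without a call. Among markers of other cell types, the summed level of the 5 epidermal genes was 497 and 504 CPM in WT and 609 and 637 CPM in salm[340]. That sum rests on cora, which rose by 0.87, while Nrx-IV and crb fell and the median of the 5 was -0.27. Of these epidermal genes 1 was called higher (20%, beside 10% of all tested genes) and 2 lower (beside 7.16%). The 6 hemocyte genes summed to 64.0 and 68.9 CPM in WT and 52.0 and 57.1 CPM in salm[340], with He at 0 in every library. Of the 5 tested, 1 was called higher (20%, beside 10% of all tested genes) and 1 lower (beside 7.16%). Of the 6 neural genes 1 was called higher (16.7%, beside 10%) and 2 lower (beside 7.16%), with values from -1.06 to 0.61. Of 4 gut and endoderm genes 1 was called higher (25%, beside 10%) and none lower. No tested marker of trachea, fat body, salivary gland or tendon was called. The part of these differences in the results on translation factors was not tested.

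The levels of the 51 genes spanned a wide range, down to 0 counts for eIF3g2. In WT, eEF1alpha1, which encodes the protein that delivers aminoacyl-tRNA to the ribosome, had the highest level per length, 9168 ± 159.5 TPM (SD, n = 2), where TPM scales counts by gene length and library total. It was followed by eEF5, the fly eIF5A, at 2508 ± 115 TPM and by eEF2, the translocase, at 1926 ± 55.7 TPM. The helicase eIF4A was at 1504 ± 51.3 TPM, ahead of the eEF1 scaffold subunit eEF1gamma at 1366 ± 57.1 TPM and the exchange factor eEF1beta at 1051 ± 29.7 TPM. Next stood eIF1, which keeps the scanning ribosome open, at 447 ± 17.7 TPM, and the WD-repeat subunit eIF3i at 360 ± 25.9 TPM. Up to that place, each gene was above the next in both WT libraries, and below it eIF3i and eIF3k overlapped. Of the 42 neighbouring pairs in the order of the 43 tested genes, 16 overlapped between the WT libraries.

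Within eIF3, eIF2 and eIF2B the subunits had levels of similar size in WT. The 13 tested eIF3 subunits ran from 133 TPM for eIF3j to 360 TPM for eIF3i. The 3 eIF2 subunits ran from 105 TPM (eIF2gamma) to 229 TPM (eIF2beta), and the 5 subunits of eIF2B, the exchange factor that recharges eIF2 with GTP, from 14.8 TPM (eIF2Bepsilon) to 27.9 TPM (eIF2Bbeta). The cap-binding group was spread more widely, with the scaffold eIF4G1 at 29.7 TPM, below the cap-binding protein eIF4E1 at 168 TPM and below eIF4A. Lengths are the joined exons of each gene, which for genes with long alternative UTRs lowers the TPM of the shorter transcripts.

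**Figure D1:**
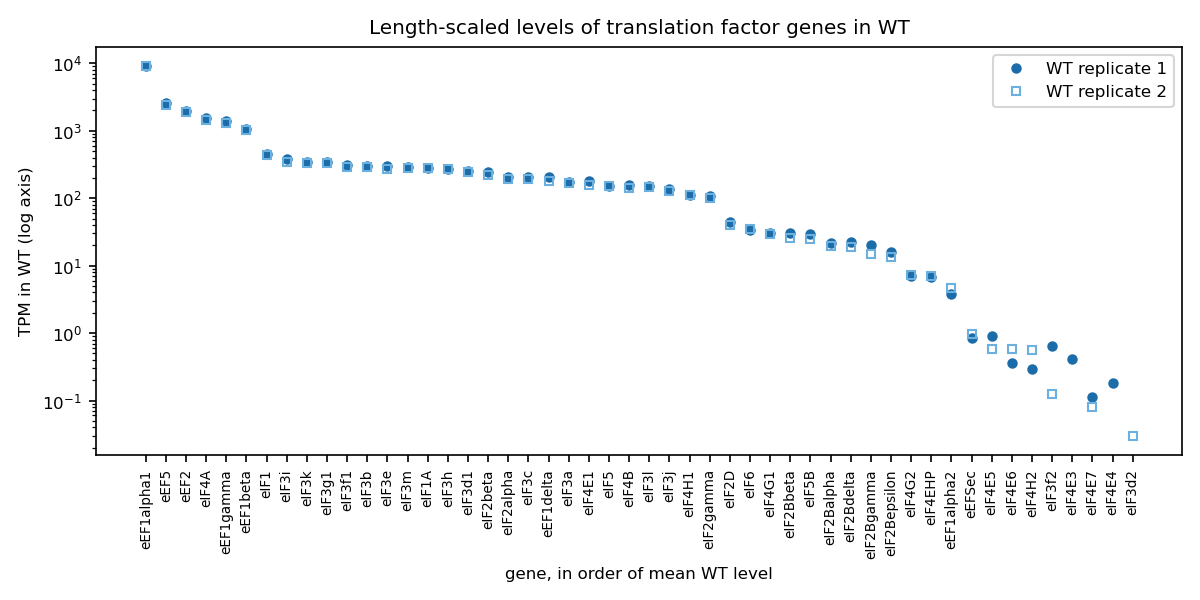
Length-scaled level (TPM, log axis) of each translation factor gene in the 2 WT libraries, in order of the mean; genes at 0 in a library have no point there. eEF1alpha1 stood alone at 9168 TPM, 5 further genes lay at 1051 TPM or more, and the untested paralogs of eIF3 and eIF4E lay under 1 TPM.

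All members together took 4.75% and 4.84% of the nuclear counts of the WT libraries and 3.87% and 4.06% of those in salm[340]. Without eEF1alpha1 they took 2.51% and 2.52% in the WT libraries and 2.14% and 2.17% in the mutant ones. Both shares were lower in both mutant libraries, while the fitted TMM scale, which follows the bulk of genes, placed the median member at a log2 fold change (salm[340] minus WT) of 0.04, beside -0.01 over all 10738 tested genes. The scale sets the direction of small differences: by library size alone all 43 tested members had negative values, with an all-gene median of -1.20, and by nuclear library size alone that median was -0.26. The members' median stood 0.05 above the all-gene median under TMM and under both of these scales. Directions below are relative to the bulk of genes by TMM.

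Of the 51 members, 43 passed the filter on low counts and 8 did not. With edgeR's quasi-likelihood test and a Benjamini-Hochberg adjusted p under 0.05, 11 of the 43 (25.6%) were called, beside 17.2% of all tested genes. Higher in salm[340] were 8 members (18.6%, beside 10% of all genes), lower were 3 (beside 7.16%), and 32 were not called. The changes were small: 29 of the 43 had an absolute log2 fold change under 0.25, and 1 called member, eEF1alpha2, differed at least 2-fold, beside 5.12% of all genes. The tested members with a positive value numbered 23 and those with a negative value 20.

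**Figure D2:**
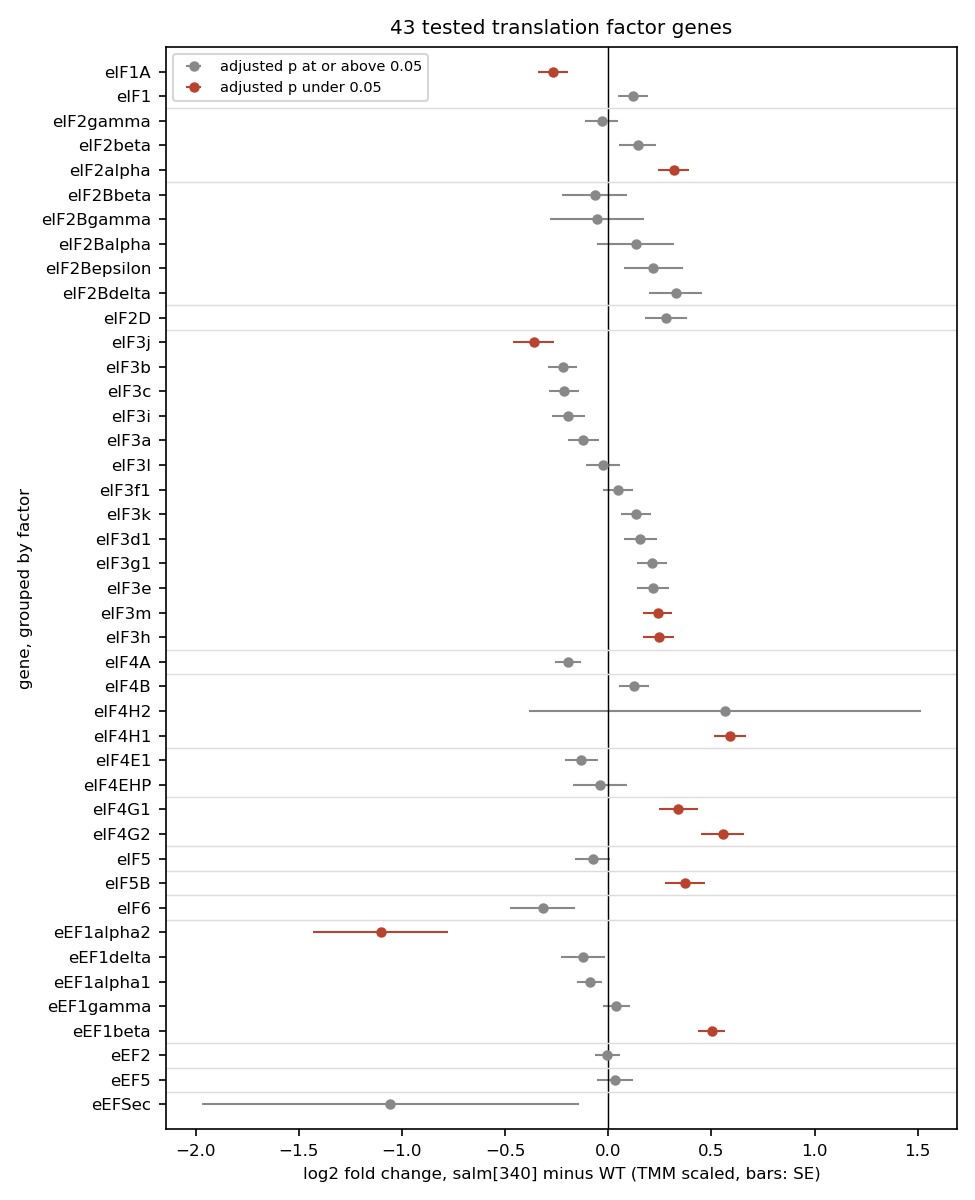
Log2 fold change, salm[340] minus WT on the TMM scale, of the 43 tested genes grouped by factor; points are edgeR estimates, bars 1 SE, and red marks an adjusted p under 0.05. Red points to the right of 0 are 8 genes, led by eIF4H1 at 0.59, and those to the left are eEF1alpha2, eIF3j and eIF1A; by library size alone every point lies left of 0.

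Among the factors that prepare the small subunit, eIF1A fell. eIF1A (FBgn0026250, 3R, 18274665 to 18283005), which with eIF1 governs scanning and start codon choice, was at 229 and 239 CPM in the WT libraries and at 198 and 190.3 CPM in salm[340]. Both mutant libraries lay below both WT libraries, and the log2 fold change was -0.27 (SE 0.0740, edgeR adjusted p = 0.0341). Its partner eIF1 was at 149 and 148 CPM in WT and 158 and 164 CPM in salm[340] (0.12, edgeR adjusted p = 0.315). eIF5B (FBgn0026259, 3L, 3428658 to 3460977), the GTPase that binds eIF1A and joins the ribosomal subunits, rose from 62.3 and 54.7 CPM to 77.1 and 74.4 CPM. Its log2 fold change was 0.37 (SE 0.0966, edgeR adjusted p = 0.0266), and the lines did not overlap. The call ended with the DESeq2 Wald test (0.36, adjusted p = 0.0566) and by nuclear library size (0.12, edgeR adjusted p = 0.382).

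Of the eIF2 subunits, eIF2alpha (FBgn0261609, X, 16445176 to 16446993), the subunit that stress kinases phosphorylate, was called. Its levels were 151 and 144 CPM in WT and 189 and 179 CPM in salm[340], higher in both mutant libraries (log2 fold change 0.32, SE 0.0758, edgeR adjusted p = 0.0188). The tRNA-binding subunit eIF2gamma (-0.03) and eIF2beta (0.14) were not called. Part of the exonic sequence of eIF2alpha, 12.6%, overlaps the antisense gene rngo, whose own log2 fold change was -0.18, and of eIF2gamma 16.0% overlaps Su(var)3-9 on the same strand; the counting had no strand setting and gave shared fragments to both genes.

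No eIF2B subunit was called, and their values ran from -0.07 (eIF2Bbeta) to 0.33. The upper end was eIF2Bdelta, with 22.8 and 20.5 CPM in WT and 26.7 and 27.7 CPM in salm[340] (SE 0.127, edgeR adjusted p = 0.110). eIF2D, a factor that can deliver initiator tRNA without eIF2, was at 38.5 and 37.1 CPM in WT and 47.5 and 44.2 CPM in salm[340], above WT in both libraries but without a call (0.28, edgeR adjusted p = 0.0901). eIF5, which triggers GTP hydrolysis by eIF2, had overlapping lines at 232 and 246 CPM in WT and 211 and 242 CPM in salm[340] (-0.08, edgeR adjusted p = 0.598). Since 80.8% of its exonic bases belong also to CG46312, nearly every fragment counted for eIF5 was counted for that gene too, 7879 and 7868 in WT replicate 1. eIF6, which keeps the large subunit from joining early, was at 17.2 and 18.4 CPM in WT and 13.1 and 15.4 CPM in salm[340] (-0.32, SE 0.158, edgeR adjusted p = 0.206).

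The eIF3 subunits moved by small amounts and in both directions. Of 13 tested, 2 rose (beside 10% of all genes called higher), 1 fell (beside 7.16% called lower) and 10 were not called. Such small counts do not set the eIF3 subunits apart from all genes. eIF3m (FBgn0033902, 2R, 14163066 to 14164825) rose from 221 and 222 CPM to 260 and 264 CPM (0.24, SE 0.0709, edgeR adjusted p = 0.0447). eIF3h (FBgn0022023, 2L, 5051193 to 5053094) rose from 193 and 200.2 CPM to 226 and 240 CPM, just under the threshold (0.24, SE 0.0745, edgeR adjusted p = 0.049996), and shares 16.8% of its exonic bases with the antisense gene senju. eIF3m and eIF3h both belong to the PCI and MPN scaffold of the complex.

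eIF3j (FBgn0027619, 2R, 9968929 to 9970897), a loosely held subunit in yeast and mammals, fell from 89.3 and 87.1 CPM to 74.2 and 63.1 CPM (-0.36, SE 0.0979, edgeR adjusted p = 0.0317). Both mutant libraries lay below both WT libraries. Just short of the threshold were the RNA-binding subunit eIF3b (-0.22, edgeR adjusted p = 0.0580) and the PCI subunit eIF3c (-0.22, edgeR adjusted p = 0.0689), and on the other side eIF3g1 (0.21, edgeR adjusted p = 0.0770) and eIF3e (0.22, edgeR adjusted p = 0.0845). eIF3i was at 212 and 201 CPM in WT and 190.4 and 171 CPM in salm[340] (-0.19, SE 0.0815, edgeR adjusted p = 0.138). The calls of eIF3m and eIF3h ended under upper-quartile scaling (edgeR adjusted p = 0.0758 and 0.0814), without the low-count filter (0.0894 and 0.0862) and with the DESeq2 Wald test (adjusted p = 0.0663 and 0.0805), and by nuclear library size both values were slightly negative.

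Counts of one subunit as a share of all eIF3 counts in the same library do not depend on the scaling between libraries. By that measure eIF3b took 13.5% and 13.7% in WT against 11.6% in each salm[340] library. eIF3j took 3.14% and 3.08% in WT against 2.57% and 2.24% in salm[340]. eIF3m took 7.77% and 7.86% in WT against 9.003% and 9.37% in salm[340]. Shares were lower in both mutant libraries for 5 subunits, higher in both for 6, and overlapped between the lines for 2, eIF3f1 and eIF3l. No such count over all genes stands beside it, and shares of one total cannot all move one way. With 2 libraries per line, the count is a description and no result about the complex. The subunits that yeast has as well, with eIF3j (a, b, c, g1, i and j), took 52.8% and 52.5% of eIF3 counts in the WT libraries and 47.7% and 47.1% in the mutant ones. The other 7 took 47.2% and 47.5% in WT and 52.3% and 52.9% in salm[340]. On the TMM scale the first set had a median log2 fold change of -0.20 (from -0.36 to 0.21, with eIF3g1 the positive member), and the second a median of 0.15 (from -0.03 to 0.24). This division was chosen after the values were seen and has no test.

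**Figure D3:**
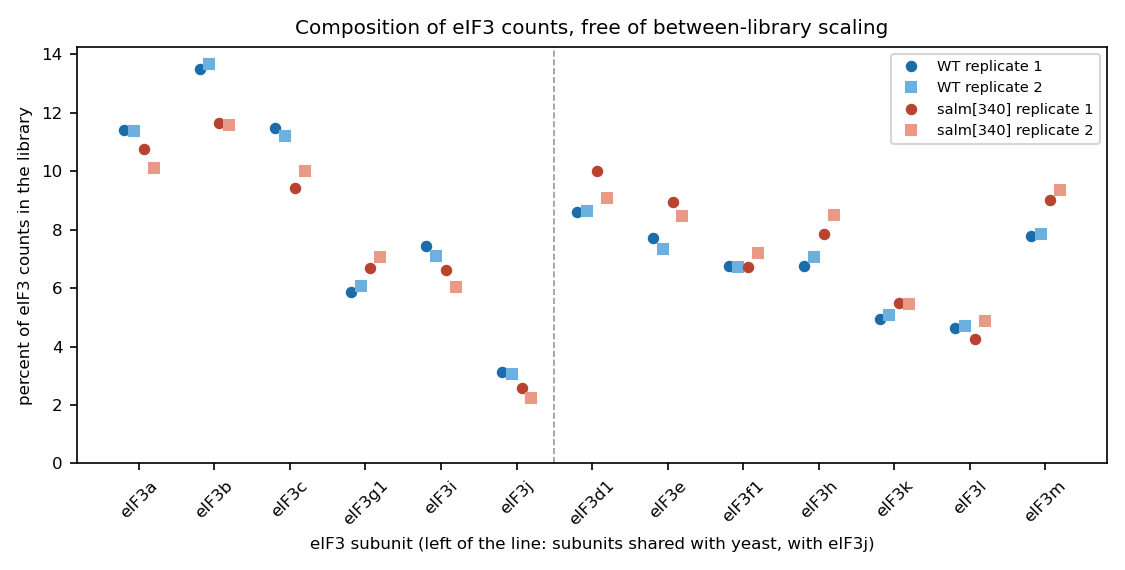
Percent of all eIF3 counts in a library taken by each tested subunit, for the 4 libraries; subunits left of the dashed line are those shared with yeast, with eIF3j. Shares of eIF3a, eIF3b, eIF3c, eIF3i and eIF3j were lower in both salm[340] libraries, and those of eIF3g1 and of 5 of the 7 subunits to the right were higher. These are shares of one total and were not tested.

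In the cap-binding group, genes of the scaffold and of a helicase cofactor rose. eIF4H1 (FBgn0262734, X, 16448665 to 16454972), whose product stimulates the helicase eIF4A, had the lowest adjusted p of all members. It rose from 238 and 247 CPM in WT to 348 and 382 CPM in salm[340] (0.59, SE 0.0770, edgeR adjusted p = 0.000748). eIF4H1 and eIF2alpha point away from each other on the X chromosome, 1671 bases apart, with the gene CG34015 between them. The related cofactor eIF4B was at 143 and 138 CPM in WT and 153 and 154 CPM in salm[340] (0.12, edgeR adjusted p = 0.296). eIF4A itself, at 1816 and 1822 CPM in WT and 1570 and 1604 CPM in salm[340], lay lower in both mutant libraries but did not pass (-0.20, SE 0.0630, edgeR adjusted p = 0.0596). It was called lower with upper-quartile scaling (edgeR adjusted p = 0.0311), over nuclear genes alone (edgeR adjusted p = 0.0350) and with the DESeq2 Wald test (adjusted p = 0.0222). With DESeq2 size factors within edgeR it was not called (edgeR adjusted p = 0.0614).

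Both eIF4G genes rose. eIF4G1 (FBgn0023213, chromosome 4, 915297 to 930715), the scaffold that holds eIF4E and eIF4A together, went from 94.7 and 95.6 CPM to 111 and 129.9 CPM (0.34, SE 0.0926, edgeR adjusted p = 0.0326). Without salm[340] replicate 2 its value was 0.21. eIF4G2 (FBgn0260634, 3R, 23808285 to 23819237), known in flies as the paralog of male germ cells and distinct from the mammalian gene of that name, went from 30.2 and 32.7 CPM to 46.9 and 45.5 CPM (0.55, SE 0.104, edgeR adjusted p = 0.00558). It shares 8.56% of its exonic bases with CG33111 on the same strand, whose own log2 fold change was 0.04 (edgeR adjusted p = 0.847). The WT libraries gave 954 and 937 fragments to CG33111, beside 1026 and 986 to eIF4G2. Fragments over the shared bases went to both genes, and their part in the level of eIF4G2 was not tested. eIF4G2 took 24.2% and 25.5% of eIF4G counts in the WT libraries and 29.7% and 25.9% in the mutant ones. The share in salm[340] replicate 2 (Wilson 95% interval 23.9% to 28.0%) lay within counting error of that in WT replicate 2 (24.1% to 26.9%). The summed level of the 4 germ cell markers was 22.05 and 23.8 CPM in WT and 36.6 and 29.5 CPM in salm[340]. Of the 4, 1 was called higher (25%, beside 10% of all genes), with values from -0.05 to 1.40. Their part in the eIF4G2 result was not tested. The cap-binding protein eIF4E1 was at 188 and 177 CPM in WT and 160 and 175 CPM in salm[340] (-0.13, edgeR adjusted p = 0.311).

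Ratios of counts within a library, chosen after the values were seen and given with no test, show the same genes against their partners. eIF4G1 per eIF4E1 was 0.503 and 0.539 in WT and 0.696 and 0.744 in salm[340]. eIF4A per eIF4G1 was 19.2 and 19.1 in WT and 14.1 and 12.3 in salm[340]. The helicase thus had fewer counts per scaffold count in both mutant libraries, while eIF4A per eIF4E1 overlapped between the lines (9.64 and 10.3 against 9.83 and 9.19). eIF4H1 per eIF4B was 1.66 and 1.79 in WT and 2.28 and 2.48 in salm[340]. eIF2alpha per eIF2gamma was 1.32 and 1.29 in WT and 1.74 and 1.59 in salm[340]. eIF5B per eIF1A, the pair that acts at subunit joining, was 0.272 and 0.229 in WT and 0.389 and 0.391 in salm[340], the largest fold among the 12 ratios computed (1.56).

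**Figure D4:**
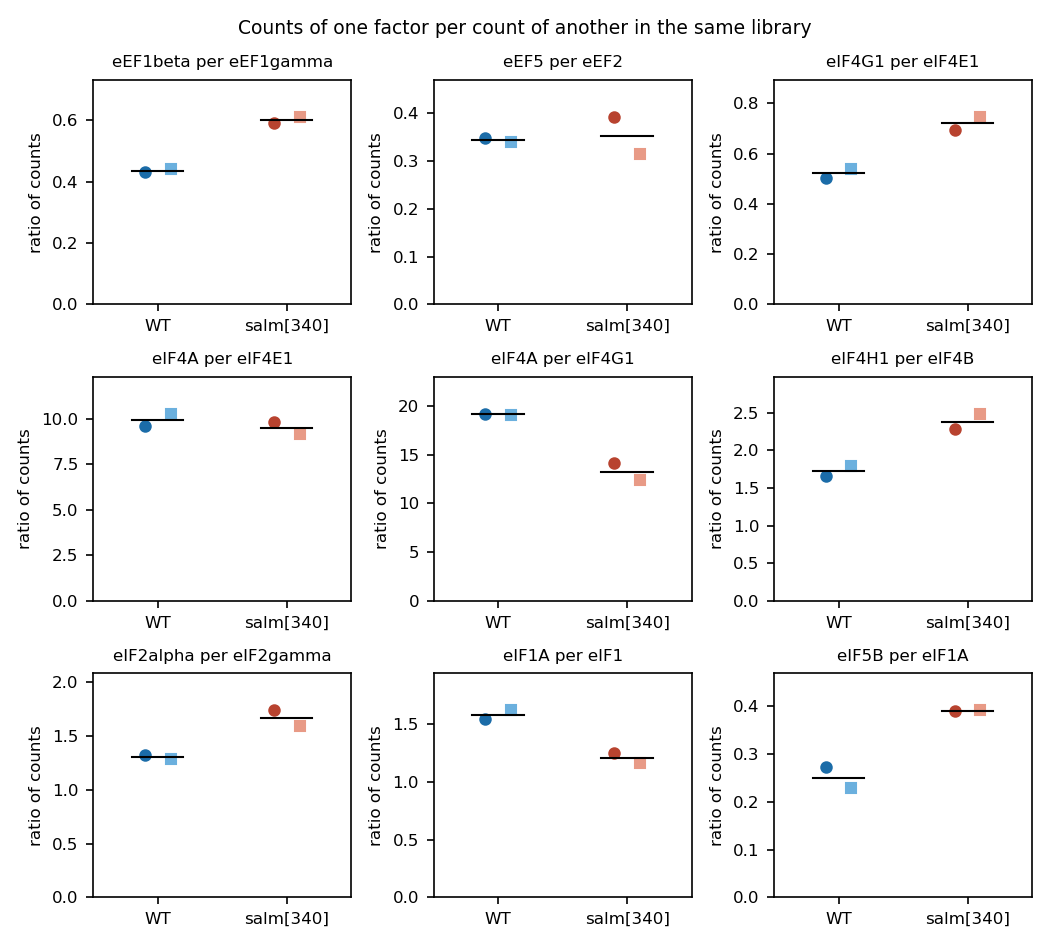
Counts of one factor divided by counts of another in the same library, for 9 of the 12 pairs; circles are replicate 1, squares replicate 2, and lines the mean of each line's 2 libraries. The lines are apart for 7 pairs, such as eIF5B per eIF1A (0.272 and 0.229 in WT, 0.389 and 0.391 in salm[340]), and overlap for eEF5 per eEF2 and eIF4A per eIF4E1. Each of the 7 holds a member called in the same counts, so their separation is no further support. The pairs were chosen after the values were seen and were not tested.

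Among the elongation factors, one exchange subunit rose while the most abundant members stayed without a call. eEF1beta (FBgn0028737, 2R, 16868222 to 16869280), which recharges eEF1alpha with GTP, rose from 489 and 495 CPM to 702 and 691 CPM (0.50, SE 0.0674, edgeR adjusted p = 0.000904). The libraries of a line lay close together and the lines far apart. eEF1gamma, the subunit eEF1beta binds, was at 1133 and 1125 CPM in WT and 1186 and 1134 CPM in salm[340] (0.04, edgeR adjusted p = 0.731), so eEF1beta had 0.432 and 0.440 counts per eEF1gamma count in WT and 0.591 and 0.610 in salm[340]. The second exchange subunit, eEF1delta, was at 91.6 and 83.2 CPM in WT and 87.7 and 72.9 CPM in salm[340] (-0.12, edgeR adjusted p = 0.478). By place in the order of TPM, eEF1beta moved from 6 in WT to 4 in salm[340], ahead of eEF1gamma and eIF4A.

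eEF1alpha1 was at 10871 and 11170.1 CPM in WT and 9984 and 10738 CPM in salm[340] (-0.09, SE 0.0607, edgeR adjusted p = 0.360). eEF2 was at 2855 and 2886 CPM in WT and 2814 and 2912 CPM in salm[340], with overlapping lines (-0.0039, SE 0.0616, edgeR adjusted p = 0.976). eEF5 spread more between the mutant libraries, 1101 and 918 CPM, than between the WT libraries, 993 and 980.4 CPM (0.03, edgeR adjusted p = 0.838). These genes make most of the members' counts, and eEF1 genes alone held 53.4% to 55.2% of them in the 4 libraries.

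eEF1alpha2 (FBgn0000557, 3R, 31738468 to 31743306), the second fly gene for eEF1alpha, fell. It was counted 161 and 188 times in the WT libraries and 24 and 28 times in the mutant ones, or 4.75 and 6.23 CPM against 2.35 and 2.76 CPM. The log2 fold change was -1.10 (SE 0.327, edgeR adjusted p = 0.0454), the largest absolute change among the called members, at low counts. Of all eEF1alpha counts it took 0.0436% (Wilson 95% interval 0.0374% to 0.0509%) and 0.0558% (0.0483% to 0.0643%) in WT, and 0.0235% (0.0158% to 0.0350%) and 0.0257% (0.0178% to 0.0371%) in salm[340]. The intervals cover counting error only, and fragments that map to both paralogs were counted for both, so these counts are uncertain. With DESeq2 the change kept its size without a call (-1.12, adjusted p = 0.112). eEFSec, the factor for selenocysteine, reached 22 and 24 counts in the WT libraries and 1 and 6 in the mutant ones and was not called (-1.06, SE 0.914, edgeR adjusted p = 0.481). Its value ran from -2.83 to -0.30 with one library left out, and by library size alone it was called (-2.23, edgeR adjusted p = 0.0383).

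Most minor paralogs had few counts in these cells. The genes eIF4E3 to eIF4E7 together had 32 of 7131 and 17 of 6039 counts of the eIF4E family in WT (0.449% and 0.282%) and 3 of 1859 and 2 of 1981 in salm[340] (0.161% and 0.101%). None of these 5 genes passed the filter. eIF4E5 had the most, 15 and 9 counts in the WT libraries and 3 and 1 in the mutant ones, eIF4E6 had 4 and 6 in WT and eIF4E7 3 and 2, both with 0 in salm[340]. eIF4E3 had 7 counts in WT replicate 1 and 1 in salm[340] replicate 2, and eIF4E4 had 3 in WT replicate 1, with 0 in the other libraries. eIF4EHP, which binds the cap without eIF4G and represses translation, took 9.93% and 11.1% of the family in WT and 12.0% and 10.3% in salm[340], with overlapping lines (-0.04, edgeR adjusted p = 0.872), and it shares 6.96% of its exonic bases with Syx1A, which was called higher (0.77, edgeR adjusted p = 0.0109). eIF3g2 had 0 counts in every library, eIF3d2 had at most 0.0331 CPM, and eIF3f2 took 0.168% and 0.0347% of eIF3f counts in the WT libraries and 0 and 0.145% in the mutant ones. A count of 0 allows up to 3 counts, which is 0.0884 CPM in WT replicate 1 and 0.295 CPM in salm[340] replicate 2. The lines overlapped for eIF4H2, with 9 and 16 counts in the WT libraries and 10 and 2 in the mutant ones (0.57, SE 0.951, edgeR adjusted p = 0.733).

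Genes that act on the factors were read from lists beside them. Of 21 tested regulators in the TOR and integrated stress pathways, 9 rose (42.9%, beside 10% of all genes) and none fell, with a median of 0.26. The chrb gene, whose product restrains TOR, rose from 88.8 ± 4.44 to 207 ± 23.6 CPM (SD, n = 2, 1.22, SE 0.0943, edgeR adjusted p = 2.95e-05). Thor, the 4E-BP that blocks eIF4E from binding eIF4G, rose from 56.2 ± 1.99 to 90.1 ± 3.05 CPM (SD, n = 2, 0.68), and Lk6, the kinase of eIF4E, from 252 ± 3.10 to 396 ± 18.3 CPM (SD, n = 2, 0.65). The kinase gene S6k rose by 0.54. The genes of the eIF2alpha kinases, named after their values were seen, were lower without a call, PEK at -0.38 (edgeR adjusted p = 0.0522) and Gcn2 at -0.70 (edgeR adjusted p = 0.0813). By nuclear library size alone 4 of the 21 were higher (19.0%) and 4 lower, with a median of 0.01. On that scale 604 of all 10684 tested genes were higher and 2196 lower. The list's median stood 0.27 above the all-gene median both there and under TMM.

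Of 15 tested cap and poly(A) regulators, 3 rose (20%, beside 10% of all genes) and 1 fell, with a median of 0.09. Pdcd4, a binder of eIF4A in mammals, rose by 0.84, the cap-binding regulator larp by 0.67 and the poly(A)-binding protein gene pAbp by 0.61, and kra, an eIF5-related regulator, fell by 0.51. Of 6 tested enzymes that modify elongation factors, 1 rose (16.7%, beside 10%): Dph1, for the first step of diphthamide on eEF2, from 21.9 ± 2.76 to 49.8 ± 1.76 CPM (SD, n = 2, 1.19, SE 0.121, edgeR adjusted p = 0.000170). Its target eEF2 had the value -0.0039 given above. Of 7 termination and recycling factors, 1 fell, the ribosome rescue factor pelo, by 0.59 (edgeR adjusted p = 0.0120), which is 14.3% beside 7.16% of all genes called lower, and the median was -0.02. Counts of 1 among so few genes say little about a list. Of 20 cytosolic aminoacyl-tRNA synthetases, 2 rose, ValRS by 0.51 and LeuRS by 0.39, a share equal to the 10% of all genes called higher, with a median of 0.21. Of 9 mitochondrial translation factors none was called by edgeR, 0 of 9 with a median of -0.03.

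Cytoplasmic ribosomal protein genes had a larger share of calls than the factors, by count. Of 90 tested cytoplasmic ribosomal protein genes, 71 rose (78.9%, beside 10% of all genes) and 1 fell (RpS15Ab, -0.61), with a median of 0.43, against 8 risen of 43 factors (18.6%) with a median of 0.04. RpL12 rose by 0.88, RpS18 by 0.87, RpLP2 by 0.81 and RpL31 by 0.74. Of the 73 mitochondrial ribosomal protein genes 15 rose (20.5%), close to the share of the factors, and 1 fell, with a median of 0.27. Of the 33 tested proteasome subunit genes 4 rose (12.1%), near the share of all genes, and none fell, with a median of -0.01. By library size alone no member of these 3 lists was called higher, and 87 of the 90 cytoplasmic ribosomal protein genes were called lower. Of all 10738 tested genes 84 were higher and 8277 lower on that scale. By nuclear library size 45 of the 90 were called higher and 5 lower, with a median of 0.18. There, 7 mitochondrial ribosomal protein genes were higher and 6 lower, and 1 proteasome gene was higher and 4 lower. Of all 10684 genes tested by nuclear library size, 604 were higher and 2196 lower. The cytoplasmic list's median stood 0.44 above the all-gene median under TMM, and 0.43 above it under each of these 2 scales. The mitochondrial list's median stood 0.28 above it under TMM, 0.30 by library size alone and 0.27 by nuclear library size. For the proteasome list those values were 0.0063, 0.0029 and 0.0023. These are counts and medians, and the lists were not tested against each other.

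**Figure D5:**
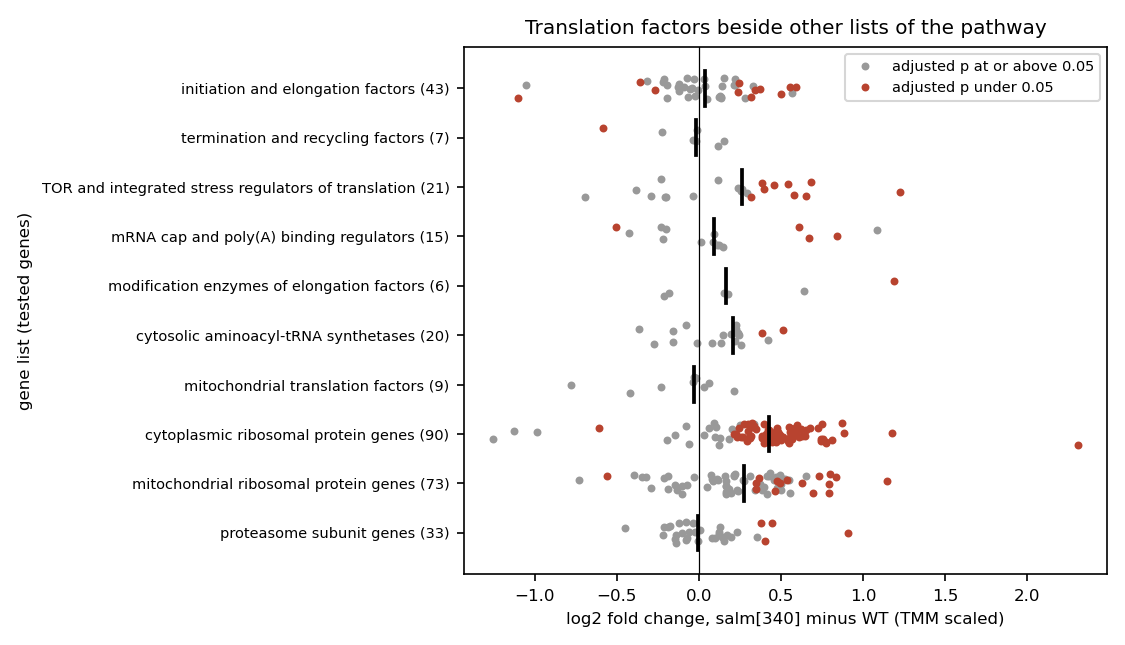
Log2 fold change, salm[340] minus WT on the TMM scale, of each tested gene in the translation factor set and in 9 other lists; bars are medians and red marks an adjusted p under 0.05. Translation factors centre at 0.04, beside 0.43 for cytoplasmic ribosomal protein genes and -0.01 for proteasome genes; by library size alone every list's median is negative.

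The number of called members followed the scaling and the libraries used, as did the share over all genes. With DESeq2 size factors within edgeR it was 11 of 43 (25.6%) beside 17.2% of all genes. With upper-quartile scaling it was 12 of 43 (27.9%) beside 17.4%, and over nuclear genes alone 13 of 43 (30.2%) beside 17.4%. Without the low-count filter it was 12 of 50 (24.0%) beside 16.2%. The split was 8 higher and 3 lower with DESeq2 size factors, but 6 and 6 both with upper-quartile scaling and without the filter, where eIF3b, eIF3c and eIF4A were called lower. Over all genes it was 1084 and 768 with DESeq2 size factors, 970 and 900 with upper-quartile scaling, and 1218 and 1208 without the filter. With library size alone the number of called members was 42 of 43, all lower, beside 77.9%. With nuclear library size it was 19 of 43, of which 2 higher (eIF4H1 and eEF1beta) and 17 lower, beside 26.2%. Over all genes 604 were higher and 2196 lower on that scale. There eIF2alpha, eIF4G1 and eIF4G2 had 0.068, 0.092 and 0.305 without a call. The DESeq2 Wald test called 9 of the 50 members it fitted, 5 higher and 4 lower, beside 13.8% of all genes (852 higher and 498 lower). The replicate block gave 16 of 43, 10 higher and 6 lower, beside 21.0% (1238 higher and 1018 lower).

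Leaving out a WT library ended every call among the members. Without WT replicate 1 none of the members was called by edgeR, beside 0.128% of all genes, with 6 members at an unadjusted p under 0.05. Without WT replicate 2 none was called, beside 0.127%, with 3 members at an unadjusted p under 0.05. The values of the 11 genes kept their direction in both fits, and eIF4H1 was at 0.56 and 0.61 (edgeR adjusted p = 0.311 and 0.273). Without salm[340] replicate 1 the calls were 19 beside 33.0%, and without salm[340] replicate 2 they were 24 beside 31.2%, in each case with all 11 genes among them. A line left with 1 library was taken to have the spread of the other line's libraries.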

How the data were processed

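The deposited values are raw fragment counts per gene, made by the authors with featureCounts 2.0.1 on the Ensembl BDGP6.32 annotation, release 104, per the file headers; alignment used STAR 2.5.4b after cutadapt 2.4, per the submitters' processing notes. Multi-mapping fragments and fragments over several genes were counted for each gene, with at least 10 shared bases and no strand option, per the file headers. The counts of the whole-series table equalled those of the library files in all 70072 comparisons. Features outside the listed genes held 5.78% to 6.35% of counts and were not tested.

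All listed genes were fitted together in edgeR 4.0.16 (R 4.3.3) with TMM scaling (factors 1.55, 1.47, 0.675 and 0.649 for WT replicates 1 and 2 and salm[340] replicates 1 and 2), filterByExpr, glmQLFit and glmQLFTest. SE is the absolute log2 fold change over the square root of F. TPM used the joined exon length in the count files. DESeq2 1.42.0, other scalings, no filter, a replicate block and each library left out were alternatives; nuclear library size and the ratios were chosen after seeing the data. Replicates differed by more than counting noise (chi-square per degree of freedom over members 5.43 in WT and 14.5 in salm[340]).

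Every member is accounted for; values per library are given for called members, the lowest adjusted p in each factor, the 8 highest in WT and paralogs. Up to 4 genes are named per other list, and PEK, Gcn2 and RpS15Ab were named after their values were seen. Members and lists were chosen with earlier results of these data known. Of the list entries, 3 were matched by a synonym and 1 not at all. Promoter and protein sequences were not used here. Positions are those of the deposited table (BDGP6).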

Additional observations from a re-analysis of the deposited data

How the results depend on the processing

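The number of called members was 11 in the reported fit and 0 to 24 with one library left out (higher 0 to 14, lower 0 to 10). It was 42 with library size alone (0 higher, 42 lower) and 19 by nuclear library size (2 higher, 17 lower). The higher count was 5 with the DESeq2 Wald test, and the lower count was 6 with upper-quartile scaling, 6 without the filter, 5 over nuclear genes and 6 with the replicate block. The members' median of 0.04 became -1.15 with library size alone, 0.0031 with upper-quartile scaling and -0.21 by nuclear library size. The all-gene medians there were -1.20, -0.048 and -0.26, each 0.05 below the members' median. Without the filter the members' median was -0.0645 and with DESeq2 -0.0276, each over 50 members, against 43 in the reported fit. The all-gene medians there were -0.092 and -0.029. The median member of the reported fit, eEF1gamma, had 0.0036 without the filter and 0.0264 with DESeq2. With one library left out the members' median ran from 0.0214 to 0.0705. The cause of these shifts was not tested. The share of eIF4E3 to eIF4E7 (salm[340] minus WT) moved from -0.234 to -0.598 percentage points per kb of length.

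With library size alone 23 members with a positive value became negative: eIF2beta -1.05, eIF4B -1.07, eIF3h -0.95, eIF4G1 -0.85, eIF2Bepsilon -0.98, eIF3e -0.97, eIF5B -0.82, eEF1beta -0.69, eEF1gamma -1.15, eIF3g1 -0.98, eIF3m -0.95, eIF3k -1.06, eIF2Bdelta -0.87, eIF1 -1.07, eIF3f1 -1.14, eIF2Balpha -1.06, eIF4H2 -0.59, eIF3d1 -1.04, eIF2D -0.91, eIF4G2 -0.64, eIF2alpha -0.88, eIF4H1 -0.60 and eEF5 -1.16. By nuclear library size 14 did so: eIF2beta -0.11, eIF4B -0.12, eIF3h -0.0044, eIF2Bepsilon -0.031, eIF3e -0.031, eEF1gamma -0.21, eIF3g1 -0.036, eIF3m -0.0089, eIF3k -0.12, eIF1 -0.13, eIF3f1 -0.20, eIF2Balpha -0.12, eIF3d1 -0.095 and eEF5 -0.22. eEF5 was at -0.0026 with upper-quartile scaling and -0.0025 without the filter.

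With one library left out, 9 uncalled members changed sign, and their ranges were -0.0412 to 0.0109 for eEF2, -0.244 to 0.0734 for eIF2Bbeta, -0.0035 to 0.0594 for eEF1gamma, -0.191 to 0.0104 for eIF5, -0.40 to 0.20 for eIF2Bgamma, -0.117 to 0.0402 for eIF3l, -0.996 to 1.29 for eIF4H2, -0.107 to 0.0028 for eIF4EHP and -0.114 to 0.146 for eEF5.

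Replicate numbers are not shown to pair the libraries: the correlation of same-numbered deviations was 0.0417 over all tested genes and -0.194 over members, from 2 pairs. The replicate block called 16 members, with all 11 of the reported calls among them. Depth limits the low members: nuclear genes had 5772320 to 5931283 counts per library in salm[340] and 14519441 to 16444569 in WT.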
